A study of Arabidopsis thaliana with 8 samples.

Results

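The glucosinolate biosynthesis genes of Arabidopsis were followed through 4 groups of seedlings, in which loss of ENAP1 and ENAP2 was crossed with dehydration. Members were the rows of the count table whose code was among 35 listed gene codes, which cover the MYB factors, chain elongation, core structure and side chain enzymes of the aliphatic and indolic branches. A row was found for 34 of the 35 codes among 36799 genes, and AOP2 (AT4G03060), the remaining code, was not analysed here. Of the 34 members, 25 belong to the aliphatic branch, 6 to the indolic branch and 3 to steps that both branches use.

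The groups were enap1-1enap2 Dehydration, Col-0 Dehydration, enap1-1enap2 Mock and Col-0 Mock, with 2 biological replicates each. The double mutant enap1-1enap2 joins a CRISPR/Cas9 deletion in ENAP1 to T-DNA insertions in ENAP2, each represented by 1 line, and Col-0 is the wild type in whose background it was made. All seedlings were 10 days old and were moved to filter paper wet with liquid MS medium, for Dehydration with 25% PEG8000 and for Mock without it, and RNA was taken from whole seedlings after 4 h. PEG8000 is a polymer that holds water back from the plant, so the treatment is an osmotic one and not drought in soil.

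Glucosinolates are sulphur-rich defence compounds of the cabbage family. Aliphatic glucosinolates are made from methionine, whose side chain is first lengthened, and indolic glucosinolates from tryptophan. In both branches a cytochrome P450 of the CYP79 family turns the amino acid into an aldoxime, a CYP83 enzyme oxidises it, glutathione supplies sulphur, and cleavage, glucosylation and sulphation complete the core structure. Side chain enzymes then alter the finished compound, and myrosinases break it down when tissue is damaged. MYB28, MYB29 and MYB76 activate the aliphatic genes, and MYB34, MYB51 and MYB122 the indolic genes.

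The libraries held 24007691 to 48279415 counts on genes, and 3 counts, taken as the floor, were worth 0.0608 to 0.135 CPM, the unit of read counts after TMM scaling of library sizes. Replicates correlated with Pearson's r of 0.992 to 0.996 across 21614 genes on the log2(CPM + 1) scale, where 113 genes differed by at least 2-fold between the replicates of Col-0 Mock, against 1 to 39 in the other groups. The dehydration marker RD29B was at 43.2 CPM in replicate 1 of Col-0 Mock and at 4.82 CPM in replicate 2, whereas RD29A was at 552 CPM in replicate 1 and 866 CPM in replicate 2, the opposite order, and RAB18 at 24.0 and 27.3 CPM. Calls of the members were repeated without each library in turn, and those of other genes were not. ENAP1 was at 12.3 and 11.5 CPM in enap1-1enap2 Dehydration, against 22.5 and 24.4 CPM in Col-0 Dehydration, and at 3.81 and 5.11 CPM in enap1-1enap2 Mock, against 13.9 and 17.3 CPM in Col-0 Mock. ENAP2 was likewise lower in every mutant library than in the Col-0 libraries of the same treatment, and both transcripts were still detected. On that scale the tested members differed between replicates by at most 0.69 in Col-0 Dehydration and by at most 0.49 in the other groups. Without the added 1 the low members differ by more, as MYB76 did at 0.36 and 1.19 CPM in Col-0 Dehydration.

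Most glucosinolate genes fell with dehydration in both genotypes. Of the 32 members with enough counts to test, 29 were lower and 2 higher in enap1-1enap2 Dehydration than in enap1-1enap2 Mock, and in Col-0 29 were again lower and 2 higher, at an adjusted p under 0.05 in edgeR's quasi-likelihood test over all genes. The background was large: 32.4% of the 21614 genes tested were lower and 32.2% higher in enap1-1enap2, and 30.0% were lower and 29.7% higher in Col-0. With the thresholds of the study's methods (p under 0.01, adjusted p under 0.05 and a log2 fold change beyond 1 in either direction), 24 members were lower and 2 higher in enap1-1enap2, where 14.1% of all genes were lower and 12.6% higher. In Col-0 the same thresholds left 22 members lower and 2 higher, where 11.7% of all genes were lower and 10.0% higher. The median log2 fold change of the tested members was -2.16 in enap1-1enap2 and -1.86 in Col-0, and the median over all genes tested was -0.01 and -0.03. The members that rose were the same in both genotypes, FMO GS-OX2 and FMO GS-OX4. All Dehydration libraries lay below all Mock libraries for 30 tested members in enap1-1enap2 and 29 in Col-0, and for 42.5% and 40.5% of all genes tested. They lay above them for 2 members in each genotype, and for 41.9% of all genes in enap1-1enap2 and 38.4% in Col-0.

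**Figure D1:**
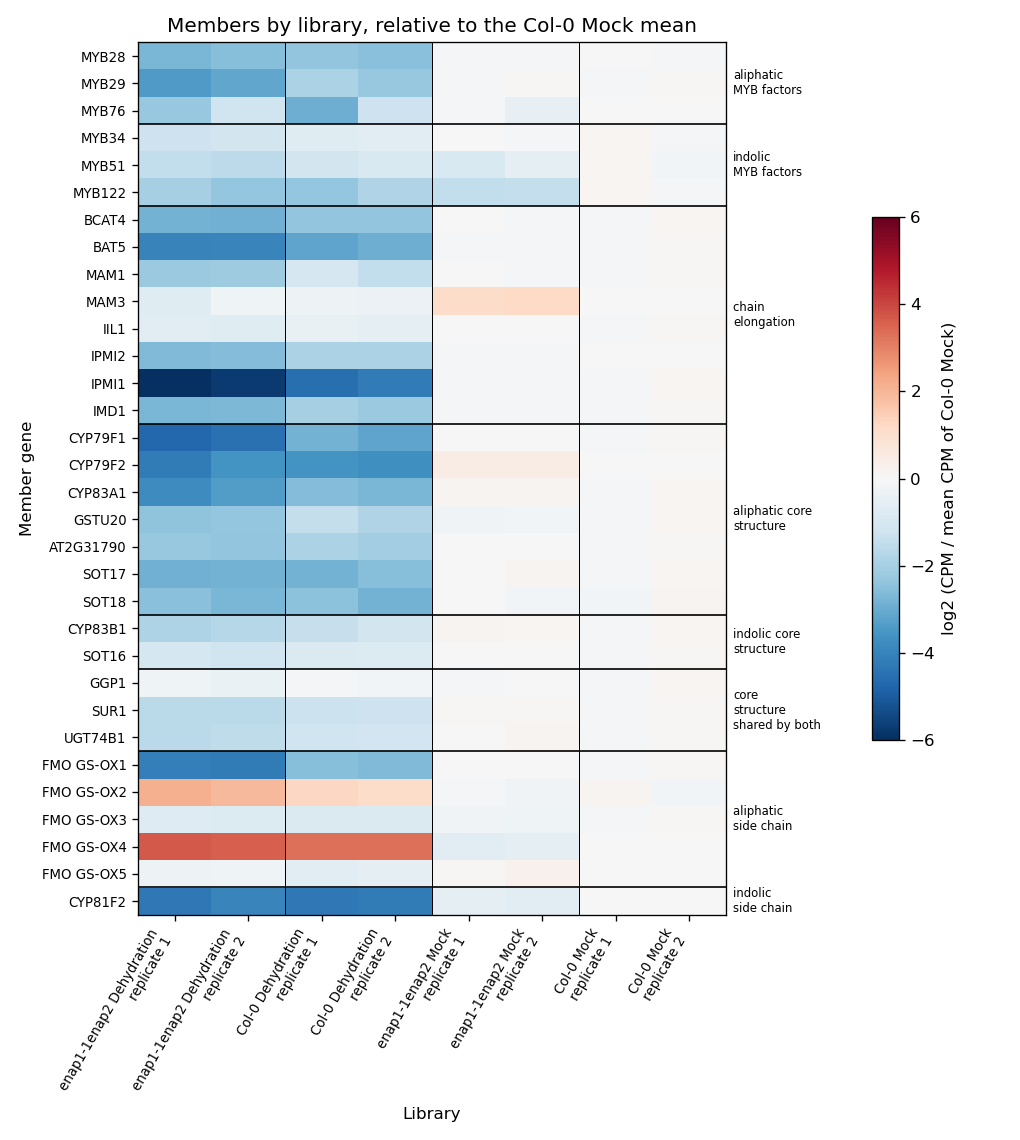
Level of the 32 tested members (rows, by branch) in each of the 8 libraries (columns), as the log2 ratio of CPM to the mean CPM of Col-0 Mock; blue is lower and red higher. The 4 dehydration libraries are blue for most members and red for FMO GS-OX2 and FMO GS-OX4, and MAM3 is red in both enap1-1enap2 Mock libraries.

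FMO GS-OX4 came to dominate the summed level of the members. Members together held 0.270% to 0.271% of the counts in enap1-1enap2 Dehydration and 0.265% to 0.268% in Col-0 Dehydration, against 0.426% to 0.427% in enap1-1enap2 Mock and 0.425% to 0.442% in Col-0 Mock. FMO GS-OX4 alone was 57.7% ± 0.87 of the members' summed CPM in enap1-1enap2 Dehydration and 46.0% ± 1.94 in Col-0 Dehydration, against 2.16% ± 0.026 in enap1-1enap2 Mock and 3.24% ± 0.15 in Col-0 Mock (SD, n = 2 each). The members without the 2 that rose summed to 1109 ± 3.14 CPM in enap1-1enap2 Dehydration and 1488 ± 87.0 CPM in Col-0 Dehydration, against 3902 ± 15.5 CPM for enap1-1enap2 Mock and 3937 ± 325 CPM for Col-0 Mock (SD, n = 2 each).

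Markers of other tissues moved with the treatment as well. All 7 root markers were lower with dehydration in both genotypes, with a summed level of 6.58 to 7.62 CPM in enap1-1enap2 Dehydration, against 59.0 to 62.9 CPM in enap1-1enap2 Mock, and of 12.5 to 12.6 CPM in Col-0 Dehydration, against 55.2 to 81.2 CPM in Col-0 Mock. The root hair gene EXPA18 had no count in either enap1-1enap2 Dehydration library. The 5 shoot markers summed to 13522 to 14797 CPM in enap1-1enap2 Dehydration, 19039 to 19564 CPM in Col-0 Dehydration, 22683 to 22920.5 CPM for enap1-1enap2 Mock and 23248 to 28072 CPM for Col-0 Mock. Of these 5, 4 were lower in enap1-1enap2 and 3 in Col-0, and LHCB2.1 was higher in both, with log2 fold changes of 1.07 and 0.34. The 3 markers of myrosin cells, which store the myrosinases, summed to 2285 to 2478 CPM in enap1-1enap2 Dehydration and 2183 to 2304 CPM in Col-0 Dehydration, against 2332 to 2339 CPM for enap1-1enap2 Mock and 1906 to 2087 CPM for Col-0 Mock. Within this sum the stomatal and myrosin cell factor FAMA was lower in both genotypes, by -0.90 in enap1-1enap2 and -0.35 in Col-0 on the log2 scale, and TGG2 was called higher in enap1-1enap2 alone (0.27). In whole seedlings fewer cells of a type and less RNA per cell cannot be told apart, and the part of these markers in the fall of the members was not tested.

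Among the aliphatic MYB factors, MYB28 (AT5G61420) was the most abundant. It was at 10.8 and 12.4 CPM in enap1-1enap2 Dehydration and 14.1 and 12.6 CPM in Col-0 Dehydration, against 70.0 and 67.1 CPM for enap1-1enap2 Mock and 75.2 and 70.5 CPM for Col-0 Mock. The treatments were far apart, and the genotypes differed under dehydration by -0.21 ± 0.11 (adjusted p = 0.23). The log2 fold change was -2.57 ± 0.10 (SE) for enap1-1enap2 and -2.45 ± 0.10 for Col-0 (adjusted p = 6.3e-12 and 1.7e-11). MYB29 (AT5G07690), which acts beside it, was at 2.64 and 3.31 CPM in enap1-1enap2 Dehydration and 7.67 and 5.82 CPM in Col-0 Dehydration, against 27.3 and 29.2 CPM for enap1-1enap2 Mock and 27.0 and 29.4 CPM for Col-0 Mock. Here the mutant fell further, with log2 fold changes of -3.26 ± 0.15 in enap1-1enap2 and -2.07 ± 0.14 in Col-0, and the interaction, the response of enap1-1enap2 minus that of Col-0, was -1.19 ± 0.21 (adjusted p = 0.0014). The 3 aliphatic factors were thus all lower in both genotypes, and an interaction was called for MYB29 alone. MYB76 (AT5G07700), which lies 1442 bases downstream of MYB29 on chromosome 5, stayed below 3 CPM everywhere, and its fall in enap1-1enap2 (log2 fold change -1.43 ± 0.45, adjusted p = 0.011) was no longer called without replicate 1 of enap1-1enap2 Mock (adjusted p = 0.10) or of enap1-1enap2 Dehydration (adjusted p = 0.13).

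MYB28 made up 72.1% ± 3.05 of the level of the 3 aliphatic factors, in CPM per kb of exon, in enap1-1enap2 Dehydration and 60.6% ± 0.24 in Col-0 Dehydration, against 66.0% ± 1.31 in enap1-1enap2 Mock and 67.0% ± 2.13 in Col-0 Mock (SD, n = 2 each). This share was higher in enap1-1enap2 than in Col-0 under dehydration, with no overlap between the libraries, and no test was run on it.

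Of the 3 indolic MYB factors, 2 were lower with dehydration in enap1-1enap2 and 3 in Col-0. MYB34 (AT5G60890) was at 25.6 and 28.0 CPM in enap1-1enap2 Dehydration and 36.9 and 37.4 CPM in Col-0 Dehydration, against 60.2 and 55.7 CPM for enap1-1enap2 Mock and 64.7 and 55.6 CPM for Col-0 Mock. Its log2 fold change was -1.11 ± 0.10 in enap1-1enap2 and -0.69 ± 0.10 in Col-0, and all dehydration libraries lay below all mock libraries. The interaction of -0.42 ± 0.14 (adjusted p = 0.045) was lost without any of 7 of the 8 libraries, replicate 1 of Col-0 Mock being the exception (adjusted p 0.059 to 0.21). It was also lost with upper quartile factors (adjusted p = 0.060), library size alone (adjusted p = 0.10) and the replicate number as a block (adjusted p = 0.054). MYB51 (AT1G18570) fell in both genotypes (adjusted p = 0.0018 in enap1-1enap2 and 0.00020 in Col-0), and was at 4.63 and 4.36 CPM in enap1-1enap2 Dehydration and 5.86 and 6.88 CPM in Col-0 Dehydration. MYB122 (AT1G74080) was at 1.14 and 0.91 CPM in enap1-1enap2 Dehydration, against 1.65 and 1.68 CPM in enap1-1enap2 Mock (log2 fold change -0.68 ± 0.32, adjusted p = 0.076), and at 0.90 and 1.32 CPM in Col-0 Dehydration, against 4.88 and 4.22 CPM in Col-0 Mock (log2 fold change -2.03 ± 0.32, adjusted p = 5.0e-05). The genotypes overlapped under dehydration, and under Mock the mutant was lower. Its interaction of 1.34 ± 0.46 was not called (adjusted p = 0.056), but was called without replicate 2 of Col-0 Dehydration (1.64, adjusted p = 0.048), with no filter on low counts (adjusted p = 0.034) and with at least 10 counts in every library (adjusted p = 0.040). Its fall in enap1-1enap2 was called with upper quartile factors (adjusted p = 0.032) and with library size alone (adjusted p = 0.036).

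The 8 chain elongation genes, which lengthen methionine step by step, were all lower with dehydration in both genotypes. IPMI1 (AT3G58990), a small subunit of isopropylmalate isomerase, fell most of all members. It was at 1.63 and 2.04 CPM in enap1-1enap2 Dehydration and 4.69 and 5.94 CPM in Col-0 Dehydration, against 103 and 104 CPM for enap1-1enap2 Mock and 99.7 and 119 CPM for Col-0 Mock. Dehydration libraries were 56.9-fold lower than Mock in enap1-1enap2 and 20.5-fold lower in Col-0, and the mutant libraries lay below Col-0 under dehydration only (interaction -1.47 ± 0.21 on the log2 scale, adjusted p = 0.00025). Another small subunit, IPMI2 (AT2G43100), fell 5.78-fold in enap1-1enap2 and 3.73-fold in Col-0, with an interaction of -0.63 ± 0.11 (adjusted p = 0.0016). The large subunit IIL1 (AT4G13430), which also serves leucine synthesis, was at 261 and 245 CPM in enap1-1enap2 Dehydration and 305 and 276 CPM in Col-0 Dehydration, against 422 and 414 CPM for enap1-1enap2 Mock and 385 and 438 CPM for Col-0 Mock. Its fall was 1.65-fold in enap1-1enap2 and 1.42-fold in Col-0, so transcripts of the large subunit and of these small subunits fell to different extents. The interaction of IIL1, -0.22 ± 0.13 (adjusted p = 0.26), was -0.32 (adjusted p = 0.038) without replicate 2 of Col-0 Mock.

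BAT5 (AT4G12030), which carries the keto acids into the plastid, was at 3.77 and 3.94 CPM in enap1-1enap2 Dehydration and 6.95 and 8.15 CPM in Col-0 Dehydration, against 58.3 and 58.2 CPM for enap1-1enap2 Mock and 58.6 and 64.0 CPM for Col-0 Mock. The fall was 15.1-fold in enap1-1enap2 and 8.11-fold in Col-0, with an interaction of -0.90 ± 0.16 (adjusted p = 0.0014). BCAT4 (AT3G19710), the aminotransferase that opens the pathway, fell 7.15-fold in enap1-1enap2 and 5.19-fold in Col-0. IMD1 (AT5G14200), the dehydrogenase that closes each round, fell 6.22-fold in enap1-1enap2 and 4.29-fold in Col-0. Their interactions were smaller, at -0.46 ± 0.13 for BCAT4 (adjusted p = 0.023) and -0.53 ± 0.12 for IMD1 (adjusted p = 0.0079). The first was lost without any of 6 libraries, all but the Col-0 Mock ones (adjusted p 0.057 to 0.099), and the second without replicate 1 of enap1-1enap2 Mock or of Col-0 Dehydration (adjusted p 0.053 and 0.051). Of the 1451 exon bases of BCAT4, 307 are shared with a gene on the other strand, and reads there were left out of its counts.

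MAM1 and MAM3 sit next to each other, 11144 bases apart on the plus strand of chromosome 5 of TAIR10, MAM1 (AT5G23010) at 7703041 to 7706973 and MAM3 (AT5G23020, IMS2 in RefSeq) at 7718118 to 7721866. Both condense the keto acid with acetyl-CoA, MAM1 for short chains and MAM3 over a wider range that includes long chains. MAM1 was at 68.0 and 74.4 CPM in enap1-1enap2 Dehydration and 161 and 116 CPM in Col-0 Dehydration, against 318 and 309 CPM for enap1-1enap2 Mock and 307 and 339.8 CPM for Col-0 Mock. The genotypes overlapped under Mock, and both mutant libraries were below both Col-0 libraries under dehydration (interaction -0.92 ± 0.17, adjusted p = 0.0018).

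MAM3 followed another pattern. It was at 20.7 and 28.1 CPM in enap1-1enap2 Dehydration and 28.0 and 26.7 CPM in Col-0 Dehydration, against 74.1 and 77.3 CPM for enap1-1enap2 Mock and 33.3 and 34.9 CPM for Col-0 Mock. The mutant stood out under Mock, where MAM3 was 2.22-fold higher than in Col-0 (adjusted p = 3.2e-05), while the genotypes overlapped under dehydration. Its interaction was -1.32 ± 0.16 (adjusted p = 0.00011), with a fall of 3.11-fold in enap1-1enap2. In Col-0 its small decline, -0.32 ± 0.12 on the log2 scale (adjusted p = 0.028), was lost without replicate 2 of Col-0 Mock (adjusted p = 0.072) or without replicate 1 or 2 of Col-0 Dehydration (adjusted p = 0.065 and 0.14). Per kb of exon, the ratio of MAM3 to MAM1 was 0.38 ± 0.058 in enap1-1enap2 Dehydration, 0.23 ± 0.044 in Col-0 Dehydration, 0.27 ± 0.014 in enap1-1enap2 Mock and 0.12 ± 0.0045 in Col-0 Mock (SD, n = 2 each). No stretch of 100 exon bases of either gene occurs elsewhere in the genome.

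**Figure D2:**
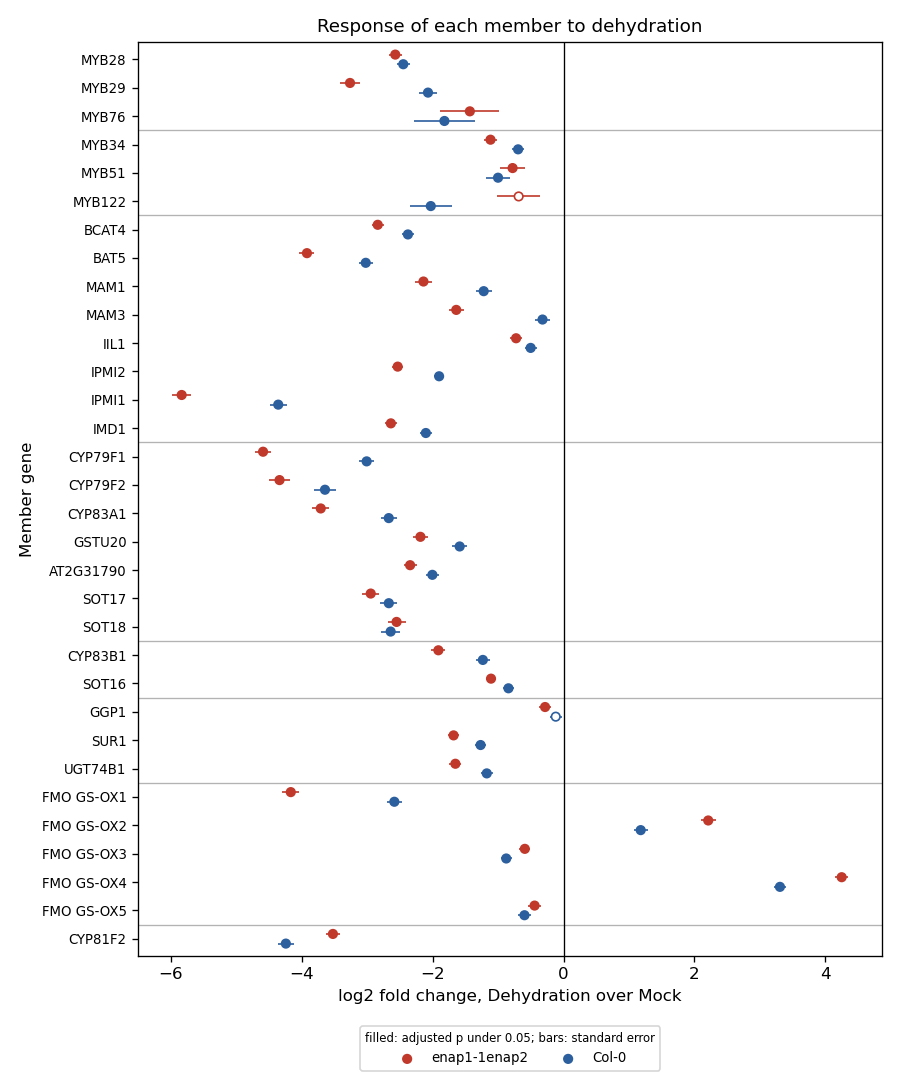
Log2 fold change of Dehydration over Mock (x axis, bars are standard errors) for the 32 tested members (rows, by branch) in enap1-1enap2 (red, upper of each pair) and Col-0 (blue, lower); filled points have an adjusted p under 0.05. FMO GS-OX2 and FMO GS-OX4 lie right of 0 in both genotypes, and the red point lies farther from 0 than the blue one for every chain elongation gene.

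The aliphatic core genes fell together too. Of 8 listed, 7 were tested and all 7 were lower in both genotypes. CYP79F1 (AT1G16410), which makes aldoximes from all lengths of elongated methionine, was at 9.05 and 10.9 CPM in enap1-1enap2 Dehydration and 33.1 and 26.7 CPM in Col-0 Dehydration, against 243 and 234 CPM for enap1-1enap2 Mock and 224 and 256 CPM for Col-0 Mock. The fall was 24.1-fold in enap1-1enap2 and 8.03-fold in Col-0. Its interaction of -1.58 ± 0.16 (adjusted p = 2.3e-05) was, with that of FMO GS-OX1, the largest in size among the members, and its genotypes overlapped under Mock. CYP79F2 (AT1G16400), which handles long chains and lies 1183 bases upstream of CYP79F1 on chromosome 1, was at 1.24 and 1.90 CPM in enap1-1enap2 Dehydration and 1.89 and 1.78 CPM in Col-0 Dehydration, against 31.3 and 30.8 CPM for enap1-1enap2 Mock and 22.8 and 23.2 CPM for Col-0 Mock. As for MAM3, the genotypes overlapped under dehydration and the mutant was higher under Mock. The interaction of -0.69 ± 0.25 was not called (adjusted p = 0.073), but was called without replicate 2 of enap1-1enap2 Dehydration (adjusted p = 0.022). The ratio of CYP79F2 to CYP79F1 per kb was 0.25 ± 0.042 in enap1-1enap2 Dehydration, 0.10 ± 0.011 in Col-0 Dehydration, 0.21 ± 0.0034 in enap1-1enap2 Mock and 0.16 ± 0.012 in Col-0 Mock (SD, n = 2 each). Each of these paralogs holds 1 stretch of 100 exon bases that occurs elsewhere in the genome.

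CYP83A1 (AT4G13770), the next oxidase, was at 19.6 and 26.2 CPM in enap1-1enap2 Dehydration and 44.2 and 40.3 CPM in Col-0 Dehydration, against 297 and 298 CPM for enap1-1enap2 Mock and 244 and 293 CPM for Col-0 Mock. The fall was 13.1-fold in enap1-1enap2 and 6.36-fold in Col-0 (interaction -1.04 ± 0.17, adjusted p = 0.00073). GSTU20 (AT1G78370), a glutathione transferase, had the highest level per kb of exon of all members under Mock, at 398 ± 4.85 CPM per kb in enap1-1enap2 and 451 ± 47.0 in Col-0, and was at 87.5 ± 3.71 in enap1-1enap2 Dehydration and 150.2 ± 27.9 in Col-0 Dehydration (SD, n = 2 each). Its interaction of -0.60 ± 0.16 (adjusted p = 0.018) was lost without replicate 1 or 2 of enap1-1enap2 Mock, replicate 1 of Col-0 Dehydration or replicate 1 of enap1-1enap2 Dehydration (adjusted p 0.066 to 0.10).

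The late aliphatic steps showed no called interaction. SOT17 (AT1G18590) and SOT18 (AT1G74090), the sulphotransferases that complete aliphatic glucosinolates, fell 7.70-fold and 5.85-fold in enap1-1enap2 and 6.35-fold and 6.23-fold in Col-0, with interactions of -0.28 ± 0.18 and 0.09 ± 0.19. AT2G31790, annotated as a UDP-glycosyltransferase, fell 5.07-fold in enap1-1enap2 and 4.01-fold in Col-0 (interaction -0.34 ± 0.14, adjusted p = 0.11). Without replicate 2 of Col-0 Mock its interaction was -0.43 (adjusted p = 0.032). GSTF11 (AT3G03190) had no count in any of the 8 libraries. All 934 of its exon bases are shared with a gene on the other strand, and reads on more than 1 gene are not counted in a table made without regard to strand, so its expression was not detectable here.

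The steps shared by both branches divided. SUR1 (AT2G20610), the lyase that cleaves the sulphur conjugate, was at 41.9 and 41.7 CPM in enap1-1enap2 Dehydration and 52.3 and 53.7 CPM in Col-0 Dehydration, against 135 and 133 CPM for enap1-1enap2 Mock and 121 and 134 CPM for Col-0 Mock. SUR1 fell 3.20-fold in enap1-1enap2 and 2.41-fold in Col-0. UGT74B1 (AT1G24100), the glucosyltransferase, fell 3.14-fold in enap1-1enap2 and 2.25-fold in Col-0. Their interactions of -0.41 ± 0.11 and -0.48 ± 0.13 (adjusted p = 0.023 and 0.017) were lost without any of 6 libraries for SUR1, all but the Col-0 Mock ones (adjusted p 0.054 to 0.11). For UGT74B1 the interaction was lost without replicate 2 of enap1-1enap2 Mock, replicate 2 of Col-0 Dehydration or replicate 1 of enap1-1enap2 Dehydration (adjusted p 0.065 to 0.11). GGP1 (AT4G30530), a peptidase that removes glutamate from the glutathione conjugate, was at 178 and 162 CPM in enap1-1enap2 Dehydration, against 200.2 and 214 CPM in enap1-1enap2 Mock, and at 201 and 190.0 CPM in Col-0 Dehydration, against 196 and 228 CPM in Col-0 Mock. Its log2 fold change was -0.28 ± 0.09 in enap1-1enap2 (adjusted p = 0.013) and -0.12 ± 0.09 in Col-0 (adjusted p = 0.28). The call in enap1-1enap2 was lost without replicate 2 of either group (adjusted p = 0.11 without the Mock and 0.14 without the Dehydration library), and without replicate 1 of Col-0 Mock the log2 fold change in Col-0 was -0.23 (adjusted p = 0.024). In Col-0 it was also called lower with upper quartile factors (adjusted p = 0.0070) and with library size alone (adjusted p = 0.0027).

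In the indolic core, CYP83B1 (AT4G31500) was at 71.0 and 78.4 CPM in enap1-1enap2 Dehydration and 97.4 and 119.6 CPM in Col-0 Dehydration, against 287 and 274 CPM for enap1-1enap2 Mock and 236 and 274 CPM for Col-0 Mock. The fall was 3.76-fold in enap1-1enap2 and 2.35-fold in Col-0 (interaction -0.68 ± 0.15, adjusted p = 0.0056). The indolic sulphotransferase SOT16 (AT1G74100) fell 2.15-fold in enap1-1enap2 and 1.79-fold in Col-0, with an interaction of -0.27 ± 0.11 that was not called (adjusted p = 0.13). Since CYP83A1 fell further than CYP83B1, the ratio of CYP83B1 to CYP83A1 per kb of exon was 3.33 ± 0.45 in enap1-1enap2 Dehydration and 2.60 ± 0.54 in Col-0 Dehydration, against 0.95 ± 0.033 in enap1-1enap2 Mock and 0.95 ± 0.020 in Col-0 Mock (SD, n = 2 each).

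The side chain enzymes held the members that rose. FMO GS-OX1 to FMO GS-OX5 oxidise the sulphur of aliphatic side chains. FMO GS-OX4 (AT1G62570) was at 1696 and 1603 CPM in enap1-1enap2 Dehydration and 1292 and 1328 CPM in Col-0 Dehydration, against 86.3 and 87.3 CPM for enap1-1enap2 Mock and 129 and 136 CPM for Col-0 Mock. The rise was 19.0-fold in enap1-1enap2 and 9.88-fold in Col-0 (interaction 0.94 ± 0.12, adjusted p = 0.00016), and the genotypes stood in opposite order under the 2 treatments, the mutant higher under dehydration and lower under Mock. FMO GS-OX2 (AT1G62540) was at 104 and 93.1 CPM in enap1-1enap2 Dehydration and 56.2 and 51.5 CPM in Col-0 Dehydration, against 22.0 and 20.6 CPM for enap1-1enap2 Mock and 26.5 and 21.1 CPM for Col-0 Mock. It rose 4.63-fold in enap1-1enap2 and 2.26-fold in Col-0 (interaction 1.03 ± 0.15, adjusted p = 0.00039).

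FMO GS-OX1 (AT1G65860) went the other way. It was at 2.07 and 1.90 CPM in enap1-1enap2 Dehydration and 6.04 and 5.69 CPM in Col-0 Dehydration, against 36.1 and 35.4 CPM for enap1-1enap2 Mock and 33.3 and 37.0 CPM for Col-0 Mock. The fall was 17.9-fold in enap1-1enap2 and 5.99-fold in Col-0, with the mutant below Col-0 under dehydration and the genotypes overlapping under Mock (interaction -1.58 ± 0.18, adjusted p = 5.2e-05). FMO GS-OX3 (AT1G62560) was at 50.7 and 48.7 CPM in enap1-1enap2 Dehydration and 47.2 and 48.1 CPM in Col-0 Dehydration, against 75.5 and 74.2 CPM for enap1-1enap2 Mock and 81.5 and 93.1 CPM for Col-0 Mock. FMO GS-OX5 (AT1G12140) fell 1.36-fold in enap1-1enap2 and 1.51-fold in Col-0, and 1103 of its 2230 exon bases are shared with other genes. Neither had a called interaction, at 0.28 ± 0.12 for FMO GS-OX3 and 0.15 ± 0.14 for FMO GS-OX5, although that of FMO GS-OX3 was 0.38 (adjusted p = 0.025) without replicate 1 of Col-0 Mock. FMO GS-OX4 held 89.7% ± 0.12 of the level per kb of the 5 genes in enap1-1enap2 Dehydration and 90.5% ± 0.27 in Col-0 Dehydration, against 32.4% ± 0.13 in enap1-1enap2 Mock and 40.9% ± 0.18 in Col-0 Mock (SD, n = 2 each). Reads on the shared bases of FMO GS-OX5 were left out while its full exon length was used. Its level per kb may therefore be too low and these shares too high.

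AOP3 (AT4G03050), which makes hydroxyalkyl glucosinolates in accessions that express it, had no count in 7 libraries and was at 0.14 CPM in replicate 2 of enap1-1enap2 Dehydration, so it was not tested. On the indolic side, CYP81F2 (AT5G57220), which hydroxylates the indole ring, was at 3.83 and 4.71 CPM in enap1-1enap2 Dehydration and 3.79 and 3.99 CPM in Col-0 Dehydration, against 49.1 and 48.2 CPM for enap1-1enap2 Mock and 74.0 and 73.2 CPM for Col-0 Mock. The genotypes overlapped under dehydration, and under Mock both mutant libraries lay below both Col-0 libraries. The fall was 11.5-fold in enap1-1enap2 and 18.9-fold in Col-0 (interaction 0.72 ± 0.17, adjusted p = 0.0089), and the interaction was 0.57 (adjusted p = 0.060) without replicate 2 of enap1-1enap2 Dehydration. The 3 dehydration markers RD29A, RD29B and RAB18 were also lower in the mutant under Mock, summing to 349.9 to 354 CPM, against 619 to 898 CPM in Col-0 Mock. Unlike CYP81F2, these markers rose with dehydration in both genotypes. The part of this marker difference in the Mock values of the members was not tested.

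**Figure D3:**
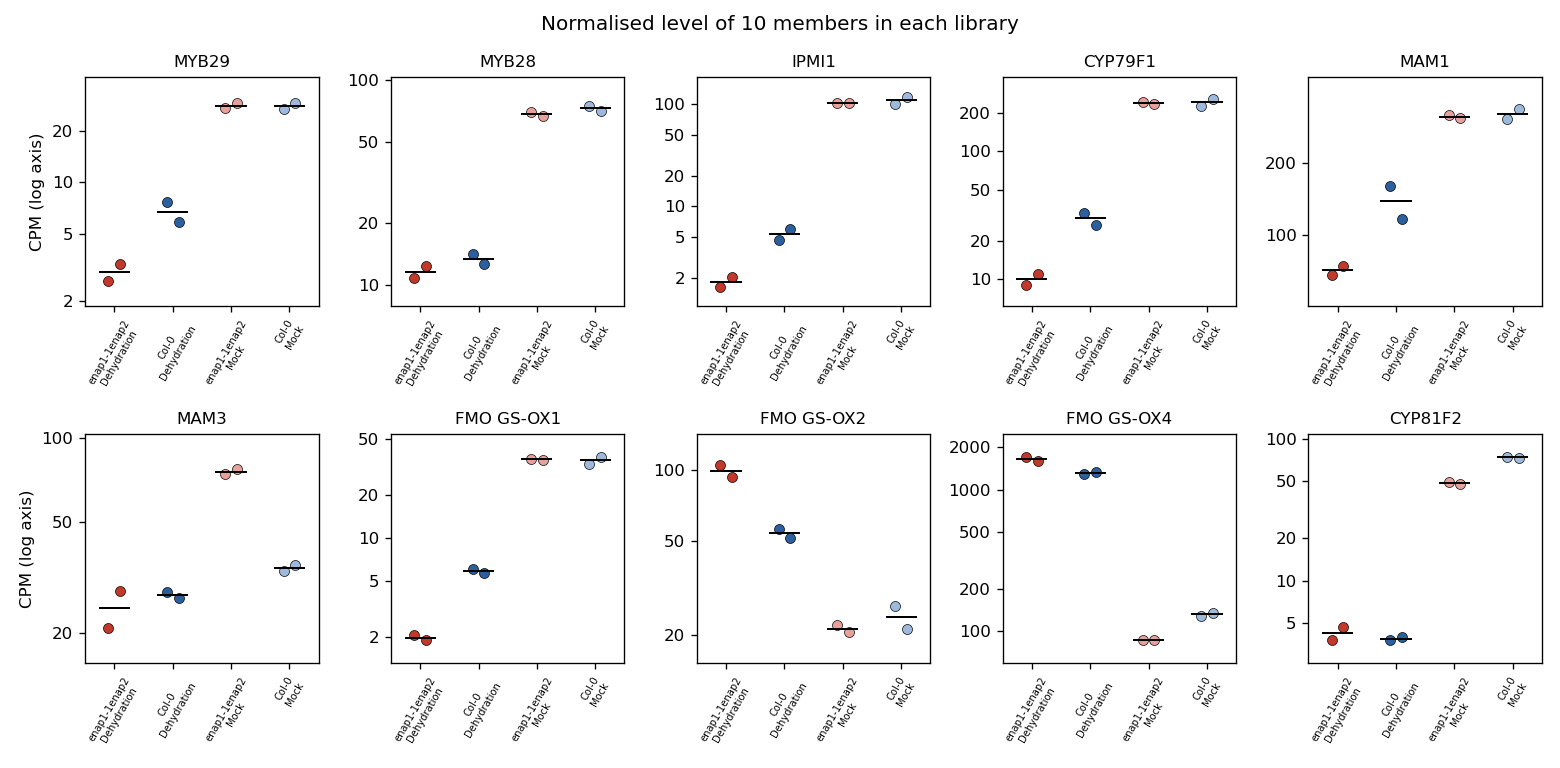
CPM on a log axis of 10 members in each library, by group (x axis); points are the 2 replicates and lines their mean. FMO GS-OX2 and FMO GS-OX4 are higher in the dehydration groups, MAM3 is highest in enap1-1enap2 Mock, and CYP79F1, IPMI1, MYB29 and FMO GS-OX1 are lowest in enap1-1enap2 Dehydration.

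Neighbouring members could move in opposite directions. FMO GS-OX2, FMO GS-OX3 and FMO GS-OX4 lie in this order on the plus strand of chromosome 1, at 23151634 to 23155728, 23159734 to 23162881 and 23168767 to 23172175 in TAIR10, with gaps of 4005 and 5885 bases. The outer genes rose, and the one between them fell 1.51-fold in enap1-1enap2 and 1.83-fold in Col-0. No 100-base stretch of their exons occurs elsewhere in the genome.

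The 250 bases before each start were searched on both strands for ACGTG, the core that abscisic acid response elements and G-boxes have in common. It was present before 16 of the 34 members (47.1%), and before 21.0% of all 36630 nuclear genes and 23.9% of the 21613 nuclear genes tested. The longer G-box CACGTG, which contains ACGTG, was before 3 members (8.82%), 5.49% of all genes and 7.44% of those tested, and CCGAC, the core of the dehydration-responsive element, before 1 member (2.94%), 11.9% and 12.8%. The 4 windows printed here, from the RefSeq TAIR10.1 genome, 5′ to 3′ on the strand of the gene, are shown because they belong to the deepest fall (IPMI1), the main aliphatic regulator (MYB28), the largest interaction (CYP79F1) and the largest rise (FMO GS-OX4). Capitals mark ACGTG or its reverse complement CACGT, and the last base is the one before the annotated start.
IPMI1, chr3:21798304-21798553, minus strand: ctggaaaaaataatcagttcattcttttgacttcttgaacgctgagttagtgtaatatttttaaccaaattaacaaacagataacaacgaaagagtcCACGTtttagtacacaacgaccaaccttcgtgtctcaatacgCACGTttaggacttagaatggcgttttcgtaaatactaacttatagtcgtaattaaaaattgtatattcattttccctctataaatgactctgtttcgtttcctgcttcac
MYB28, chr5:24691188-24691437, minus strand: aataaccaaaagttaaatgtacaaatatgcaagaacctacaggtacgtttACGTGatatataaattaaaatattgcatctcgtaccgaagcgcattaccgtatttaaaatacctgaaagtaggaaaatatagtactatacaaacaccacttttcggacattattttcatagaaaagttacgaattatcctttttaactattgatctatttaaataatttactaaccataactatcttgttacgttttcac
CYP79F1, chr1:5608432-5608681, plus strand: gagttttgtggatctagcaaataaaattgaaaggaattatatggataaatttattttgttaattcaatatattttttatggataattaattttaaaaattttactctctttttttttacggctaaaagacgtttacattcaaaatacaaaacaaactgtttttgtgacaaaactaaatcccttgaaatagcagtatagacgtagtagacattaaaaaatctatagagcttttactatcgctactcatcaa
FMO GS-OX4, chr1:23168517-23168766, plus strand: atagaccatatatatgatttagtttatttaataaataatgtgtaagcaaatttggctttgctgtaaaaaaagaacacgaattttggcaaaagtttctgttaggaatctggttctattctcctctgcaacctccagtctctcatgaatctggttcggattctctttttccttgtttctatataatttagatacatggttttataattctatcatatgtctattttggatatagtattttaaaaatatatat
IPMI1 holds the core at 2 places and MYB28 at 1, and neither CYP79F1 nor FMO GS-OX4 holds it. The windows of FMO GS-OX2 and FMO GS-OX3, like that of FMO GS-OX4, held no ACGTG, whereas those of FMO GS-OX1 and FMO GS-OX5 held 1 each. A match is a run of letters and not a site shown to be bound, and its absence says only that these letters are not in this window.

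The genotypes were next compared within each treatment. Under dehydration 16 members were lower and 3 higher in enap1-1enap2 than in Col-0, where 8.14% of all genes tested were lower and 6.56% higher. The median log2 fold change was -0.33 for the members and 0.01 for all genes tested. Both mutant libraries lay below both Col-0 libraries for 22 members and above them for 4, and the same held for 28.4% and 29.1% of all genes tested. The members called lower were MYB29 and MYB34, 6 of the 8 chain elongation genes (BCAT4, BAT5, MAM1, IPMI2, IPMI1 and IMD1), CYP79F1, CYP83A1 and GSTU20, CYP83B1 and SOT16, SUR1 and UGT74B1, and FMO GS-OX1. The largest of these differences were -1.59 ± 0.12 for CYP79F1 (adjusted p = 2.1e-06), -1.56 ± 0.15 for FMO GS-OX1 (adjusted p = 9.4e-06) and -1.56 ± 0.18 for IPMI1 (adjusted p = 4.6e-05). FMO GS-OX2 (0.87 ± 0.11, adjusted p = 7.0e-05), FMO GS-OX4 (0.33 ± 0.09, adjusted p = 0.018) and FMO GS-OX5 (0.31 ± 0.10, adjusted p = 0.044) were higher.

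Of these 19 calls, 12 held in each of 16 other fits at this threshold and 7 did not. The calls of FMO GS-OX4 and FMO GS-OX5 were each lost without any library other than the Col-0 Mock ones (adjusted p 0.053 to 0.12 and 0.061 to 0.26), and so was that of SOT16 (adjusted p 0.066 to 0.24). That of FMO GS-OX5 was also lost with upper quartile factors (adjusted p = 0.052) and with DESeq2 (adjusted p = 0.073). That of SUR1 was lost without any single dehydration library (adjusted p 0.052 to 0.082). UGT74B1 lost its call without replicate 2 of Col-0 Dehydration or replicate 1 of enap1-1enap2 Dehydration (adjusted p = 0.073 and 0.069), MYB34 without replicate 1 of enap1-1enap2 Dehydration (adjusted p = 0.063) and CYP83B1 without replicate 2 of Col-0 Dehydration (adjusted p = 0.063). Without replicate 1 or 2 of Col-0 Mock, IIL1 (adjusted p = 0.033 and 0.033), AT2G31790 (0.024 and 0.023) and GGP1 (0.044 and 0.044) were also called lower. AT2G31790 was called lower as well with RLE size factors, upper quartile factors, DESeq2, no filter on low counts and at least 10 counts in every library (adjusted p 0.037 to 0.049).

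Under Mock fewer members were called than under dehydration. In enap1-1enap2, 2 members (6.25%) were higher than in Col-0 and 4 (12.5%) lower, where 3.47% of all genes tested were higher and 3.70% lower. The median log2 fold change was -0.04 for the members and -0.01 for all genes. Both mutant libraries lay below both Col-0 libraries for 10 members and above them for 5, and the same held for 26.1% and 25.3% of all genes tested. The higher members were MAM3 (1.15 ± 0.11, adjusted p = 3.2e-05) and CYP79F2 (0.43 ± 0.12, adjusted p = 0.043). The lower members were FMO GS-OX4 (-0.61 ± 0.09, adjusted p = 0.00077), CYP81F2 (-0.60 ± 0.09, adjusted p = 0.0011), MYB122 (-1.45 ± 0.29, adjusted p = 0.0077) and MYB51 (-0.72 ± 0.17, adjusted p = 0.021). MYB51 was at 6.75 and 8.78 CPM in enap1-1enap2 Mock, against 14.1 and 11.5 CPM in Col-0 Mock, without overlap. The calls of MAM3, FMO GS-OX4 and CYP81F2 held in each of 16 other fits at this threshold. That of CYP79F2 was lost without any 1 of the 4 Mock libraries (adjusted p 0.086 to 0.30), that of MYB122 without replicate 1 or 2 of enap1-1enap2 Mock (adjusted p = 0.12 and 0.093), and that of MYB51 without these (adjusted p = 0.28 and 0.059) or replicate 1 of Col-0 Mock (adjusted p = 0.087). FMO GS-OX3 was called lower without replicate 1 of Col-0 Mock (-0.32, adjusted p = 0.025).

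**Figure D4:**
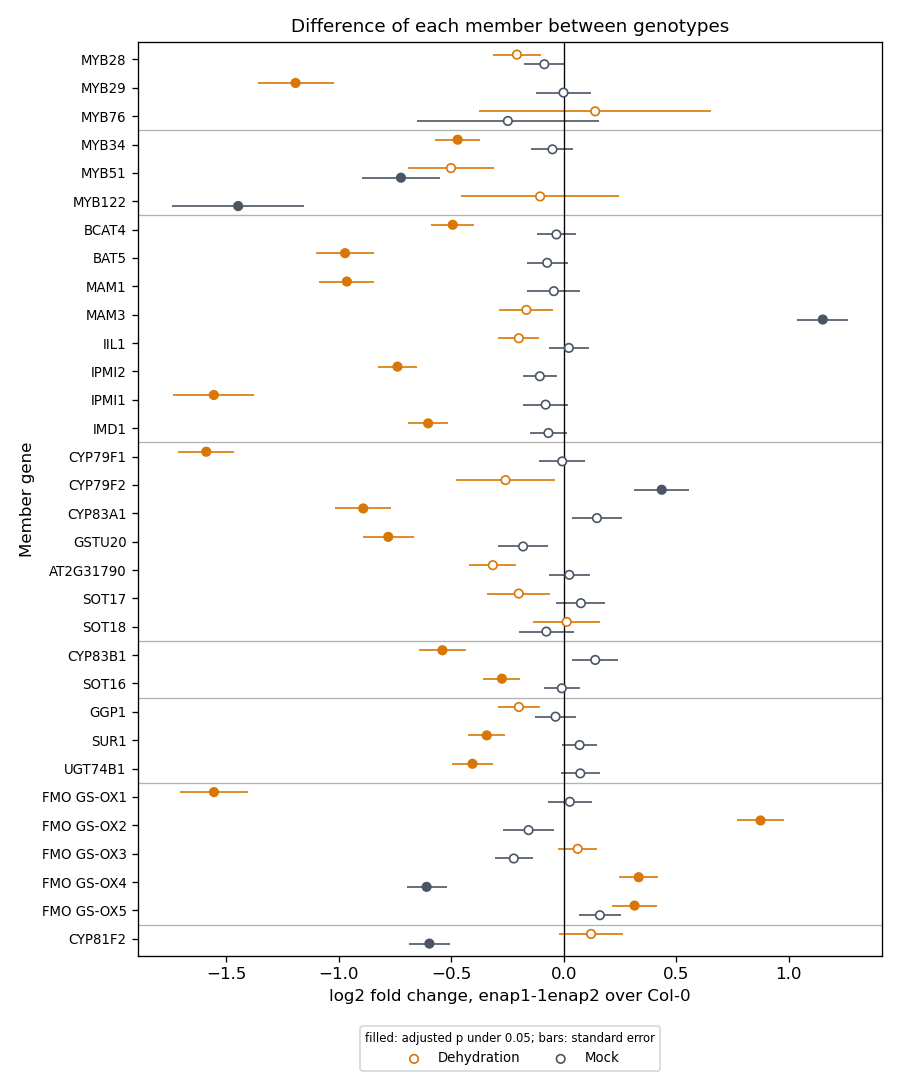
Log2 fold change of enap1-1enap2 over Col-0 (x axis, bars are standard errors) for the 32 tested members (rows, by branch) under Dehydration (orange, upper of each pair) and Mock (grey, lower); filled points have an adjusted p under 0.05. Under dehydration 16 filled points lie left of 0 and 3 right of it, and under Mock 4 lie left and 2 right.

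The difference in response between the genotypes was tested as the interaction. Of the 32 tested members, 16 had a more negative and 3 a more positive response in enap1-1enap2 than in Col-0, where 8.76% of all genes tested were lower and 8.07% higher, and the median was -0.42 for the members and 0.01 for all genes. By branch, the lower ones were 1 of 3 aliphatic MYB factors, 1 of 3 indolic MYB factors, 7 of 8 chain elongation genes, 3 of 7 aliphatic core genes, 1 of 2 indolic core genes, 2 of 3 shared genes and 1 of 5 aliphatic side chain genes. The higher ones were FMO GS-OX2, FMO GS-OX4 and CYP81F2, the first 2 because they rose more in enap1-1enap2 and CYP81F2 because it fell less. For FMO GS-OX4 the lower Mock level of the mutant made up the larger part of the interaction. Of the 19 calls, 12 held in each of 15 other fits at this threshold, and the 7 that did not were those of MYB34, BCAT4, IMD1, GSTU20, SUR1, UGT74B1 and CYP81F2. The genotypes share no library, but the interaction and the comparisons within a treatment rest on the same 8 libraries and are not separate evidence.

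Other genes of the pathway that were not members were read from a list of 37, of which 35 were tested. In enap1-1enap2, 18 of them (51.4%) were lower and 9 (25.7%) higher with dehydration, where 32.4% of all genes were lower and 32.2% higher. In Col-0 16 (45.7%) were lower and 9 (25.7%) higher, against 30.0% and 29.7% of all genes. CYP79B2 (AT4G39950), which makes the indolic aldoxime, was at 31.1 and 29.3 CPM in enap1-1enap2 Dehydration and 25.8 and 31.2 CPM in Col-0 Dehydration, against 178 and 172 CPM for enap1-1enap2 Mock and 179.7 and 166 CPM for Col-0 Mock. The genotypes overlapped under dehydration, and the interaction was 0.07 (adjusted p = 0.78). The transporter genes GTR1 and GTR2, which load glucosinolates into the phloem, had interactions of -1.33 (adjusted p = 0.00018) and -1.05 (adjusted p = 7.1e-05). GTR1 was at 59.8 and 42.8 CPM in enap1-1enap2 Dehydration, against 57.4 and 57.3 CPM in enap1-1enap2 Mock, and at 93.0 and 99.3 CPM in Col-0 Dehydration, against 38.9 and 46.4 CPM in Col-0 Mock, so that its rise was called in Col-0 and not in the mutant.

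Of 9 breakdown genes tested, 4 (44.4%) were higher and 2 (22.2%) lower with dehydration in enap1-1enap2. In Col-0 2 (22.2%) were higher and 3 (33.3%) lower. Of 18 tested synthesis genes outside the member list, 14 (77.8%) were lower and 1 (5.56%) higher in enap1-1enap2. In Col-0 12 (66.7%) of the synthesis genes were lower and 2 (11.1%) higher. Over all genes tested, 32.2% were higher and 32.4% lower in enap1-1enap2, and 29.7% were higher and 30.0% lower in Col-0. The breakdown shares in Col-0 were near those of all genes. The difference between these lists was not tested. The myrosinase gene TGG1 had a log2 fold change of -0.03 in enap1-1enap2 and 0.17 in Col-0 (adjusted p = 0.78 and 0.13). NSP5, a nitrile specifier protein gene, was at 1285 and 1166 CPM in enap1-1enap2 Dehydration and 1409 and 1241 CPM in Col-0 Dehydration, against 163 and 183 CPM for enap1-1enap2 Mock and 169 and 173 CPM for Col-0 Mock. BGLU28, a beta-glucosidase gene, was at 48.9 and 38.7 CPM in enap1-1enap2 Dehydration and 9.74 and 8.57 CPM in Col-0 Dehydration, against 5.79 and 4.81 CPM for enap1-1enap2 Mock and 1.98 and 0.41 CPM for Col-0 Mock. It rose in both genotypes and was higher in the mutant under each treatment, by 2.26 (adjusted p = 7.4e-05) on the log2 scale under dehydration and 2.25 (adjusted p = 0.0018) under Mock. Of 6 regulation genes tested, 4 (66.7%) were higher and 1 (16.7%) lower with dehydration in each genotype. Their median log2 fold change was 0.33 in enap1-1enap2 and 0.51 in Col-0, and no interaction was called among them. One of them, SDI1, a repressor of glucosinolate synthesis under sulphur shortage, was at 99.99 and 95.7 CPM in enap1-1enap2 Dehydration and 42.2 and 32.8 CPM in Col-0 Dehydration, against 15.0 and 16.3 CPM for enap1-1enap2 Mock and 7.62 and 5.19 CPM for Col-0 Mock, with no overlap between any of the 4 groups.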

How the data were processed

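RNA-seq was made from whole seedlings, and the authors deposited raw read counts per gene, not normalized, for 36799 genes in 8 libraries. Per the file headers and methods, reads were trimmed (Trim Galore 0.6.7) and counted on Araport11 exons of TAIR10 with featureCounts 2.0.1 without regard to strand; the methods name bowtie2, whereas the alignment file names are those STAR gives. Mates were counted singly, so counts are not independent molecules. The count table has no row for 1 listed code.

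Members were matched by code, and members and gene lists were chosen with earlier results of these data known. Counts were filtered (filterByExpr by group, 21614 genes), TMM-scaled and fitted with edgeR 4.0.16 (R 4.3.3) over all 8 libraries, 1 mean per group, with 5 contrasts and Benjamini-Hochberg adjustment over all genes; calls were at 0.05. All members were named. Alternatives were other scalings, filters, DESeq2 1.42.0, the study's thresholds, a replicate block, the 4 libraries of a comparison alone and omission of single libraries. Steps were tested on simulated counts. All 34 members have the same start and end in RefSeq. P-values set each difference against a spread estimated over all 8 libraries, 2 replicates per group, with information shared across genes. They do not measure the spread within the compared groups alone.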

Additional observations from a re-analysis of the deposited data

Results flagged for a closer look

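For 19 members the response to dehydration differed between the genotypes by the interaction test of edgeR's quasi-likelihood model at an adjusted p under 0.05. The values are the log2 fold change of Dehydration over Mock in enap1-1enap2 minus that in Col-0, and no explanation was weighed.

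The mutant fell further for 16 members. In the chain elongation group the differences were -1.47 for IPMI1, -1.32 for MAM3, -0.92 for MAM1, -0.90 for BAT5, -0.63 for IPMI2, -0.53 for IMD1 and -0.46 for BCAT4. In the core structure they were -1.58 for CYP79F1, -1.04 for CYP83A1, -0.68 for CYP83B1, -0.60 for GSTU20, -0.48 for UGT74B1 and -0.41 for SUR1. Among regulators they were -1.19 for MYB29 and -0.42 for MYB34, and among side chain genes -1.58 for FMO GS-OX1.

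For 3 members the difference was positive, at 1.03 for FMO GS-OX2 and 0.94 for FMO GS-OX4, which rose more in the mutant, and at 0.72 for CYP81F2, which fell less. MAM3 and CYP81F2 differed between the genotypes mainly under Mock, and CYP79F1, IPMI1 and FMO GS-OX1 mainly under dehydration. FMO GS-OX4 was lower in the mutant under Mock and higher under dehydration, and the Mock difference was the larger.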

How the results depend on the processing

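No value that passed the test changed sign in an alternative run. Of the values of single genes that did not pass it, 24 changed sign in at least 1 alternative (43 values in all, none of them called). With the study's thresholds, 7 members kept an interaction call (1 higher, 6 lower), 2 differed under Mock (1 higher, 1 lower) and 4 under dehydration (0 higher, 4 lower). The shares of all genes at these thresholds were not written out for these comparisons, so these counts stand without a background and are not read as a result about the members. The count higher under Mock was 1 with upper quartile factors, library size alone, DESeq2 and the replicate block, each time through the loss of CYP79F2. Without 1 library at a time, the members called were 30 to 31 in enap1-1enap2 (2 to 2 higher, 28 to 29 lower), 30 to 32 in Col-0 (2 to 2 higher, 28 to 30 lower), 14 to 20 for the interaction (2 to 4 higher, 11 to 17 lower), 13 to 22 between genotypes under dehydration (1 to 3 higher, 12 to 19 lower) and 3 to 6 under Mock (1 to 2 higher, 2 to 4 lower). Same-numbered libraries did not deviate together (r of -0.06 to 0.08 across 21614 genes), so the numbers were not treated as pairs. With the replicate number as a block, 31 members were called in each genotype, 18 for the interaction (MYB34 lost), 19 under dehydration and 5 under Mock. For the runs without 1 library and with the block, the shares of all genes were likewise not written out. Upper quartile factors and library size alone shifted the median of all genes by -0.19 and -0.18 in Col-0 and by -0.16 and -0.17 in enap1-1enap2. A minimum of 10 counts in every library removed MYB76. A fit on 4 libraries cannot give the interaction, which spans all groups. Of the values of single members and branches, 123 lost a call, 24 gained one and 92 moved, and the cause was not tested. With 2 replicates per group, small differences in low members such as MYB76 and MYB122 could not be resolved.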

Other observations

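BGLU30, another beta-glucosidase gene, was at 21.4 and 14.9 CPM in enap1-1enap2 Dehydration and 8.03 and 3.99 CPM in Col-0 Dehydration, against 4.47 and 4.81 CPM in enap1-1enap2 Mock and 5.69 and 4.46 CPM in Col-0 Mock. Its interaction was 1.73 on the log2 scale (adjusted p = 0.0047 in edgeR's quasi-likelihood test). IGMT2, an indole glucosinolate methyltransferase gene, was at 2.74 and 3.38 CPM in enap1-1enap2 Dehydration and 6.72 and 6.66 CPM in Col-0 Dehydration, against 22.6 and 20.3 CPM in enap1-1enap2 Mock and 16.4 and 17.2 CPM in Col-0 Mock (interaction -1.50, adjusted p = 0.00018). ESM1, a modifier of glucosinolate breakdown, had log2 fold changes of -2.42 in enap1-1enap2 and -1.57 in Col-0 (interaction -0.85, adjusted p = 0.0020). The calls of these genes, which are not members, were not repeated without single libraries or in the other fits.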
